A study of Mus musculus with 4 samples.

Results

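The 9 genes described here are Pik3ip1 and 8 genes of the signalling route from phosphoinositide 3-kinase (PI3K) to the FOXO transcription factors: Pik3cd, Pik3r1, Pik3r5, Inpp5d, Inpp4b, Akt1, Foxo1 and Foxo3. They were chosen by name among the 35275 gene identifiers of the count table, and 9 of 9 were found. Pik3ip1 was picked because its count was higher after tumour cell injection in wild type mice only, so its values are given as a description, without a test. The other 8 were added for their place in the pathway, with earlier results of these data known. The lists of related genes counted below were also drawn up with those results known. Counts of these genes or lists beside a share of all genes are therefore descriptions.

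PI3K phosphorylates a lipid of the inner cell membrane, and the product recruits and activates the kinase AKT. AKT in turn phosphorylates FOXO factors, which then leave the nucleus and stop activating their target genes, among them genes of lymphocyte homing, survival and quiescence. In natural killer (NK) cells, lymphocytes of innate immunity that attack tumour cells, this route lies downstream of cytokine and activating receptors. Pik3ip1 encodes a membrane protein that binds the catalytic subunit of PI3K and lowers its activity.

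RNA was sequenced from NK cells of mouse spleen, enriched with a kit and then sorted as CD3-negative, NK1.1-positive cells. There were 4 groups with 1 library each. In the WT control and WT injected groups the mice were wild type of the C57BL/6 (B6) strain, and in the Irf4-/- control and Irf4-/- injected groups the label was Irf4-/-, meaning that the gene of the transcription factor IRF4 was knocked out. Injected mice had been given cells of the mouse melanoma line B16-F10 intravenously 20 days before the spleens were taken, and control mice had not. The labels give neither the ages of the animals, the number pooled in a library nor the part of Irf4 that was deleted.

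With 1 library per group, a ratio between libraries has no replicate check. It compares those libraries and not the conditions, and its 95% interval (exact, Clopper-Pearson) covers counting error only. Effects of genotype and of injection were tested across all 4 libraries with edgeR's quasi-likelihood test, in which both effects are added and the departure from additivity serves as the error. "Rose" and "fell" are used of that test alone. In bulk RNA, fewer cells of a type and less RNA per cell cannot be told apart.

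Total counts ranged from 15878159 to 21104881, and 17678 to 18684 genes had a count. Irf4 itself had 93, 57, 188 and 236 counts in WT control, WT injected, Irf4-/- control and Irf4-/- injected. It was thus higher in the libraries labelled Irf4-/-, and since the deleted part is not stated, its count does not check the label. All 12 NK cell markers were present, with a summed level of 15293 to 17073 CPM (counts scaled to a common library size). Summed markers were 121 to 145 CPM for T cells, of which Cd28 alone gave 72.3 to 96.4. They were 27.2 to 66.3 for B cells, 33.5 to 71.8 for monocytes and macrophages and 16.9 to 98.7 for erythroid cells. For dendritic cells they were 691 to 1260, nearly all of it Itgax, which NK cells also express. Neutrophil markers summed to at most 0.943 CPM, with Ly6g, Retnlg and Mmp8 at 0, whereas every marker of the other lists had a count in at least 1 library.

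Pik3ip1 (ENSMUSG00000034614; GRCm38 chromosome 11, 3330401 to 3342971, plus strand) showed a range over the libraries that was far wider than that of any other gene of the set. In the WT control and injected libraries it had 509 and 2233 counts, or 24.1 and 120.4 CPM. In the Irf4-/- control and injected libraries it had 67 and 74 counts, or 4.21 and 3.97 CPM. Both libraries labelled Irf4-/- lay below both WT libraries, and WT injected stood far above the rest. The highest level was 30.3 times the lowest, against a median of 1.23 times over the 9674 genes whose mean reached 5 CPM, and only 3 of those genes had a wider range.

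In wild type, Pik3ip1 was 4.99-fold higher in the injected than in the control library (log2 ratio 2.32, 95% counting interval 2.18 to 2.47). Between the libraries labelled Irf4-/- the log2 ratio was -0.08 (-0.58 to 0.41). The difference between these log2 ratios was 2.40 (1.91 to 2.90). Set by genotype, the library labelled Irf4-/- was 5.60-fold lower than WT among controls (log2 ratio -2.48, -2.90 to -2.14) and 29.6-fold lower among injected mice (log2 ratio -4.89, -5.28 to -4.59). These ratios share libraries, and the responses to injection chose the gene, so they do not support each other. WT injected, the library with the most Pik3ip1, had the lowest summed markers of B cells (27.2 CPM), erythroid cells (16.9 CPM), dendritic cells (691 CPM) and NK cells (15293 CPM) and the highest of monocytes and macrophages (71.8 CPM). Not every marker went with its sum. Il2rb of the NK cell list was highest in WT injected (3341 CPM), and Lyz2 of the macrophage list was lowest there (4.80 CPM). The part of these cell types in the result was not tested.

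**Figure D1:**
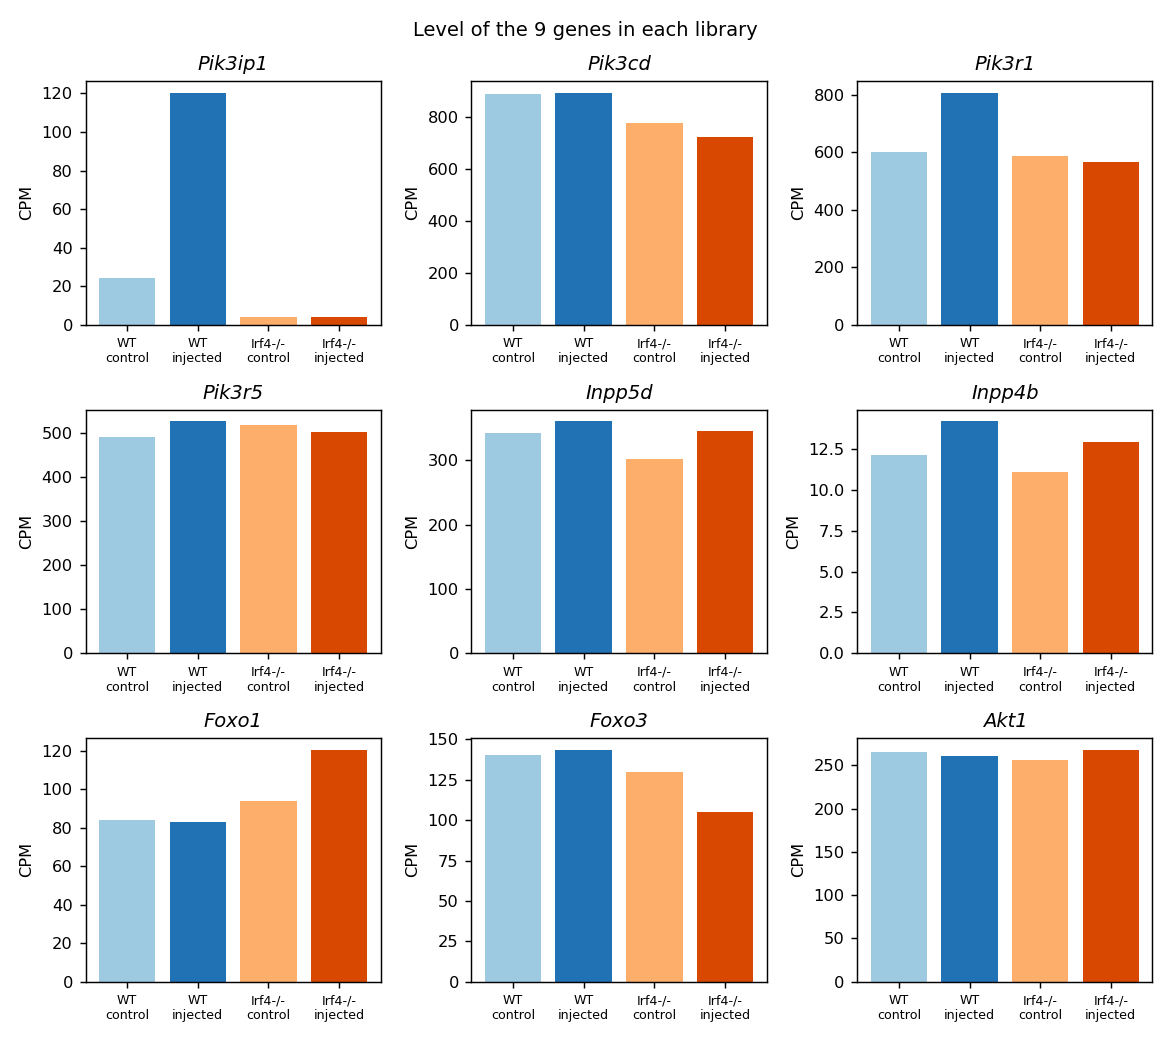
Level of each of the 9 genes in CPM (vertical axes, each from 0 on its own scale) in the 4 libraries (bars, 1 library each, so no error bar). Pik3ip1 reaches 120.4 CPM in WT injected against 24.1 CPM or less in the other libraries, whereas the other 8 genes differ by at most 1.46 times between their highest and lowest library.

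Overlap with annotated genes was the only source of mixed reads examined for Pik3ip1, and reads that fit several places in the genome were not examined. Gm12592, on the opposite strand, overlaps the start of Pik3ip1 and had 17, 31, 9 and 11 counts in WT control, WT injected, Irf4-/- control and Irf4-/- injected. Whether counting used strand is not given in the sources used here. None of the 3 nearest protein-coding genes on either side of Pik3ip1 that averaged 5 CPM or more differed 2-fold in any pair of libraries. These were Eif4enif1, Drg1 and Patz1 before it and Limk2, Rnf185 and Morc2a after it, with log2 ratios between -0.57 (Morc2a, Irf4-/- over WT, injected) and 0.48 (Patz1, injected over control, WT). Limk2, 1285 bp from the end of Pik3ip1, was at 79.5, 78.0, 62.0 and 66.2 CPM in the same order. This covers the nearest genes only, and Camk2b and Emid1, further along chromosome 11, are described below.

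The genes whose pattern over the 4 libraries was closest to that of Pik3ip1 were found by the root mean square difference of log2 CPM after centring each gene on its own mean. This is a ranking over 4 libraries and no test. Socs2, which encodes an inhibitor of cytokine receptor signalling, was closest with a difference of 0.73, against a median of 2.02 over 9673 genes. Its level was 12.7, 49.9, 6.28 and 4.02 CPM in WT control, WT injected, Irf4-/- control and Irf4-/- injected. It was followed by Ifi208 (1.05), Camk2b (1.17), Hist1h1e (1.26), Bmf (1.28) and Dmrta1 (1.29). Bmf, a member of the family of BH3-only proteins that promote cell death, was at 17.4, 36.7, 9.87 and 10.7 CPM. Ifi208 and Camk2b ranked high through the genotype difference, since neither was higher in WT injected than in WT control. In WT control and WT injected, Ifi208 was at 60.6 and 59.3 CPM and Camk2b at 123 and 80.2 CPM. Camk2b lies on chromosome 11 (5969644 to 6066362), as Pik3ip1 does. So does Emid1 (5106265 to 5152257), which ranked 8 and is named outside the naming rule. The log2 ratio of Irf4-/- over WT was -2.77 for Camk2b and -1.601 for Emid1 among controls. Among injected mice it was -3.58 for Camk2b and -1.77 for Emid1. Whether position on chromosome 11 plays a part in the genotype difference was not tested.

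**Figure D2:**
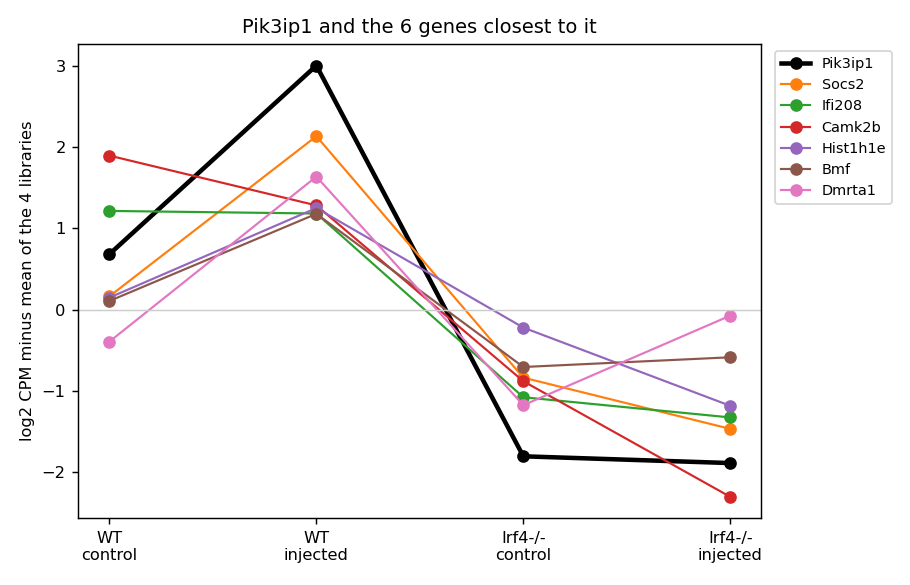
Level of Pik3ip1 (thick black line) and of the 6 genes with the closest pattern, as log2 CPM minus the gene's mean over the 4 libraries (vertical axis), in each library (horizontal axis; lines only join the points of a gene). Socs2 follows Pik3ip1 most closely, with a root mean square difference of 0.73, while Ifi208 and Camk2b share the low values in the libraries labelled Irf4-/- but are not higher in WT injected than in WT control.

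None of the 8 other genes passed the test for genotype or for injection. With edgeR, 0 of 8 passed an adjusted p of 0.05 for genotype, where 1.48% of the 11998 genes tested passed (1.22% higher, 0.258% lower), and 0 of 8 for injection, where 0.725% passed (0.333% higher, 0.392% lower). DESeq2 and limma-voom also called 0 of 8 for either effect. At an unadjusted p under 0.05, edgeR gave 2 of 8 for genotype, Foxo1 and Foxo3, against 10.4% of all genes, and 0 of 8 for injection, against 14.2%. For genotype at that level DESeq2 gave 2 and limma-voom 3, and for injection both gave 0. The shares over all genes are those of edgeR and are not given for these tools. The median log2 difference of the 8 was -0.13 for genotype and 0.08 for injection, and over all genes tested both medians were 0.00.

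A ratio was counted by size where the mean was at least 5 CPM, the ratio at least 2-fold and its counting interval excluded 1, which is a rule and not a test. By this size rule, 0 of 8 differed at least 2-fold in any pair of libraries. The rule was met by 0.807% of genes between genotypes in controls, 1.78% in injected mice, 1.90% between the WT libraries and 0.350% between the libraries labelled Irf4-/-, and 1.24% met it for the difference of the responses to injection. Counting intervals of the 8 excluded 0 more often than the size rule was met. Between genotypes in controls they did so upward for 2 and downward for 3, against 18.0% and 18.7% of genes, and in injected mice for 1 and 5, against 27.2% and 27.6%. With injection they did so upward for 3 and downward for 0 in wild type, against 30.2% and 30.8%, and for 3 and 4 between the libraries labelled Irf4-/-, against 20.4% and 20.8%. Of the 8, 6 had their highest level in WT injected, as did 34.1% of the 9674 genes, and 1, Foxo1, had its lowest there, as did 34.4%. The libraries separated by genotype without overlap for 4 of 8 (Pik3cd, Pik3r1, Foxo1 and Foxo3), against 33.4% of genes, and by injection for 2 of 8 (Inpp5d and Inpp4b), against 43.6%.

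**Figure D3:**
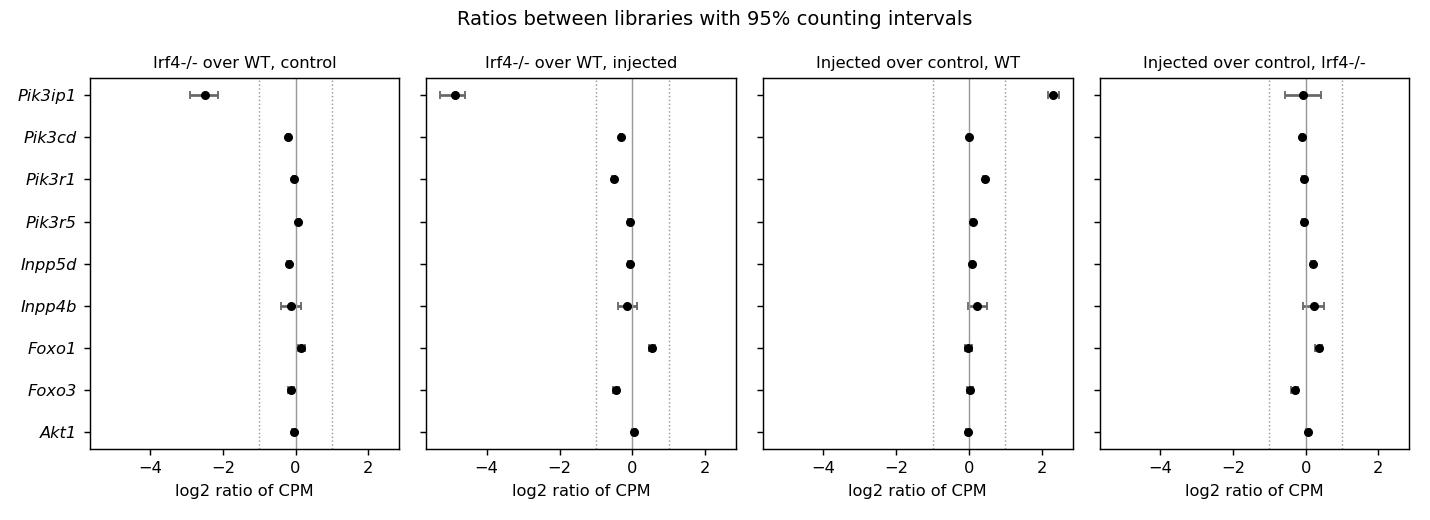
Log2 ratio of CPM (horizontal axis) of each of the 9 genes in 4 pairs of libraries, with 95% counting intervals (bars); dotted lines mark a 2-fold difference. Only Pik3ip1 lies beyond a dotted line, in 3 of the 4 pairs, and the other 8 genes lie between -0.51 and 0.54.

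Among the catalytic and regulatory subunits, Pik3cd (ENSMUSG00000039936; chromosome 4, 149649168 to 149702571, minus strand) had the highest level per gene length of the set. It encodes p110delta, the catalytic subunit typical of leukocytes. Its level was 887, 892, 775 and 722 CPM in WT control, WT injected, Irf4-/- control and Irf4-/- injected. Both libraries labelled Irf4-/- were lower than both WT libraries, by a log2 ratio of -0.19 (-0.23 to -0.16) among controls and -0.30 (-0.34 to -0.27) among injected mice. The genotype effect was -0.25 ± 0.118 (log2, SE), which did not pass with edgeR (adjusted p = 0.518).

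Pik3r1 (ENSMUSG00000041417; chromosome 13, 101680563 to 101768217, minus strand) encodes the p85alpha subunit, which stabilises the catalytic subunit and brings it to activated receptors. It was at 599.9, 808, 588 and 567 CPM in WT control, WT injected, Irf4-/- control and Irf4-/- injected. WT injected stood above the other 3 libraries, which lay close together. The log2 ratio of injected over control was 0.43 (0.40 to 0.46) in wild type and -0.05 (-0.09 to -0.01) between the libraries labelled Irf4-/-, and the difference of 0.48 (0.43 to 0.53) was, after Pik3ip1, the widest of the set. The additive injection effect was 0.19 ± 0.136 (edgeR adjusted p = 0.562) and the genotype effect -0.27 ± 0.136 (edgeR adjusted p = 0.561).

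Pik3r5 (ENSMUSG00000020901; chromosome 11, 68432121 to 68497849, plus strand) encodes p101, the regulatory subunit that couples the gamma form of PI3K to G protein-coupled receptors. Its levels were 491, 527, 518 and 502 CPM in WT control, WT injected, Irf4-/- control and Irf4-/- injected, and the highest was 1.07 times the lowest. The edgeR adjusted p was 0.996 for genotype and 0.933 for injection.

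Levels of different genes were compared on the deposited FPKM scale, which divides the count by library size and gene length. Of the summed FPKM of the 4 class I catalytic subunits, Pik3cd supplied 78.3%, 78.6%, 74.7% and 74.4% in WT control, WT injected, Irf4-/- control and Irf4-/- injected. Pik3cb, the p110beta subunit, supplied 4.71%, 4.19%, 7.21% and 6.49%. Among all genes 1.22% rose with the Irf4-/- label. Of the 7 tested catalytic subunits, the gene that did so was Pik3cb (log2 0.45 ± 0.0945 SE, edgeR adjusted p = 0.0476). Its levels were 70.3, 62.7, 98.6 and 83.0 CPM, with both libraries labelled Irf4-/- above both WT libraries. The call was lost with DESeq2 (adjusted p = 0.245), with limma-voom (adjusted p = 0.0631) and without the injection term in edgeR (adjusted p = 0.491), and the adjusted p over 10 alternatives ranged from 0.00273 to 0.491. None of the 7 passed for injection, where 0.725% of all genes did. At an unadjusted p under 0.05, edgeR gave 1 of 7 for genotype (Pik3cb), against 10.4% of all genes, and 0 for injection, against 14.2%.

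Among the regulatory subunits, Pik3r5 held 53.3%, 48.6%, 56.4% and 55.7% of the summed FPKM in the same order and Pik3r1 40.1%, 45.8%, 39.3% and 38.6%. Pik3r1 thus came nearest to Pik3r5 in WT injected. None of 7 tested regulatory subunits and adaptors passed with edgeR for genotype or injection. At an unadjusted p under 0.05, edgeR gave 2 of 7 for genotype (Pik3r2 and Pik3r6), against 10.4% of all genes, and none for injection, against 14.2%.

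**Figure D4:**
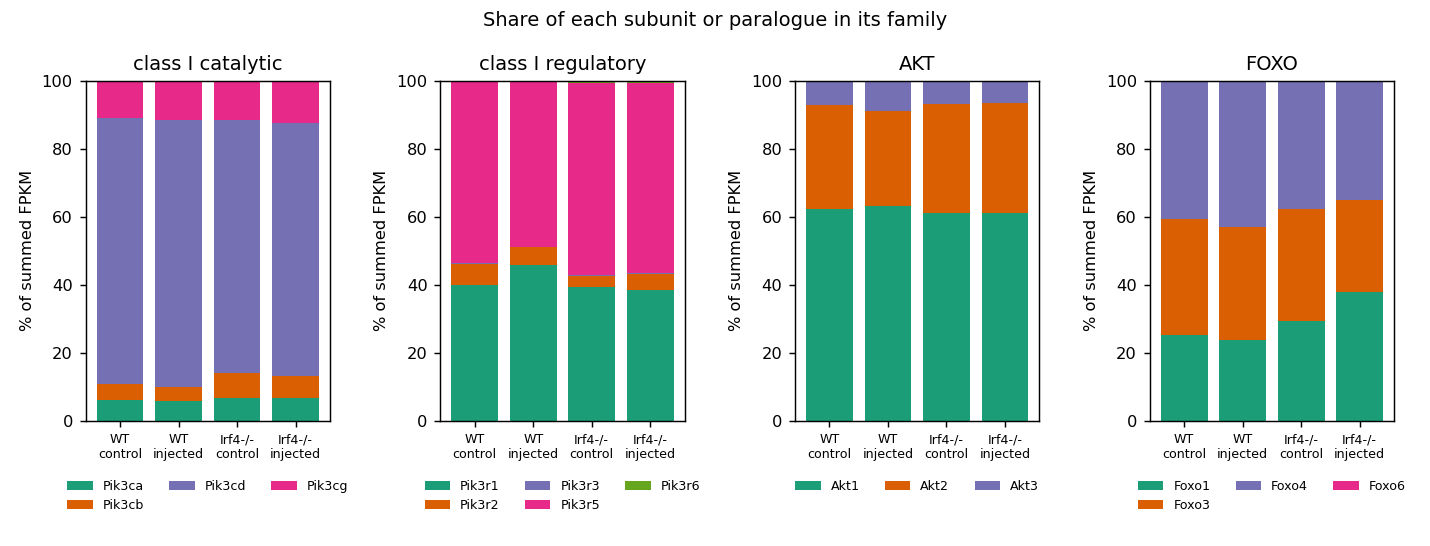
Share of each gene in the summed FPKM of its family (vertical axes, percent) in the 4 libraries (stacked bars). Pik3cd makes up 74.4% to 78.6% of the catalytic subunits and Akt1 61.2% to 63.2% of the AKT genes, while the share of Foxo1 is highest, at 38.0%, in Irf4-/- injected.

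Of the phosphatases that remove PI3K's lipid products, Inpp5d (ENSMUSG00000026288; chromosome 1, 87620312 to 87720507, plus strand) encodes SHIP1, an inhibitor of signalling in blood cells. It was at 343, 361, 302 and 345 CPM in WT control, WT injected, Irf4-/- control and Irf4-/- injected. Injected libraries were slightly higher than their controls, with log2 ratios of 0.07 (0.03 to 0.12) in wild type and 0.19 (0.14 to 0.25) between the libraries labelled Irf4-/-. The additive injection effect of 0.13 ± 0.106 did not pass (edgeR adjusted p = 0.606).

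Inpp4b (ENSMUSG00000037940; chromosome 8, 81342556 to 82127914, plus strand), which encodes a phosphatase acting on a later lipid of the route, was the lowest of the set per gene length, with a mean of 2.30 FPKM. It had 257, 264, 177 and 242 counts, or 12.1, 14.2, 11.1 and 13.0 CPM. All 4 of its counting intervals between libraries included 0. No difference beyond counting error was therefore seen, and the widest interval, between the libraries labelled Irf4-/-, ran from -0.06 to 0.51.

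Among the 9 tested phosphatases and other brakes, counted without Pik3ip1, none passed with edgeR for genotype or injection. At an unadjusted p under 0.05, edgeR gave 3 of 9 for genotype (Inpp4a, Inppl1 and Phlpp1), against 10.4% of all genes, and 1 of 9 for injection (Inpp4a), against 14.2%.

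Akt1 (ENSMUSG00000001729; chromosome 12, 112653821 to 112674884, minus strand), the kinase between PI3K and FOXO, varied least of the set. Its levels were 265, 261, 256 and 268 CPM, and the highest was 1.05 times the lowest. The genotype effect was -0.01 ± 0.103 and the injection effect 0.02 ± 0.103 (edgeR adjusted p = 0.996 and 0.947). Akt1 held 62.5%, 63.2%, 61.3% and 61.2% of the summed FPKM of the 3 AKT genes.

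Sgk1, a kinase that also lies downstream of PI3K and phosphorylates FOXO factors, was the member of the 8 tested kinases that fell with injection, as did 0.392% of all genes. Its levels were 100.2, 50.3, 103 and 59.7 CPM in WT control, WT injected, Irf4-/- control and Irf4-/- injected, with both injected libraries below both controls. The additive effect was -0.89 ± 0.0999 (log2, SE; edgeR adjusted p = 0.00304), and the adjusted p exceeded 0.05 in 1 of 10 alternatives, the fit without the genotype term (0.215). None of the 8 kinases passed for genotype, and none of 14 tested genes of the mTOR complexes and their regulators passed for either effect. Among all genes 1.48% passed for genotype and 0.725% for injection. At an unadjusted p under 0.05 edgeR gave 0 of the kinases and 1 of the mTOR genes (Rheb) for genotype, against 10.4% of all genes. For injection it gave 1 of the kinases (Sgk1) and 0 of the mTOR genes, against 14.2%.

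Foxo1 (ENSMUSG00000044167; chromosome 3, 52268336 to 52353221, plus strand) encodes a FOXO factor that maintains lymphocyte homing receptors. Its level was 83.9, 82.8, 93.8 and 120.6 CPM in WT control, WT injected, Irf4-/- control and Irf4-/- injected. Irf4-/- injected stood above the other 3 libraries, and both libraries labelled Irf4-/- were above both WT libraries. The log2 ratio of Irf4-/- over WT was 0.16 (0.06 to 0.26) among controls and 0.54 (0.45 to 0.64) among injected mice. Injected over control was -0.02 (-0.12 to 0.08) in wild type and 0.36 (0.27 to 0.46) between the libraries labelled Irf4-/-. The additive genotype effect was 0.35 ± 0.110 (edgeR adjusted p = 0.224) and passed in 1 alternative, with TMM scaling factors taken from all genes with a count (edgeR adjusted p = 0.0394).

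Foxo3 (ENSMUSG00000048756; chromosome 10, 42181841 to 42276755, minus strand) encodes a related factor and had the opposite order. It was at 141, 144, 129.8 and 105 CPM in WT control, WT injected, Irf4-/- control and Irf4-/- injected. Irf4-/- injected was the lowest library for Foxo3 and the highest for Foxo1. The log2 ratio of Irf4-/- over WT was -0.12 (-0.20 to -0.03) among controls and -0.45 (-0.53 to -0.36) among injected mice, and the additive genotype effect of -0.28 ± 0.107 did not pass (edgeR adjusted p = 0.367).

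Of the summed FPKM of the FOXO genes, Foxo1 held 25.2%, 23.7%, 29.4% and 38.0% in WT control, WT injected, Irf4-/- control and Irf4-/- injected. Foxo3 held 34.2%, 33.4%, 33.0% and 26.9%, and Foxo4 40.6%, 42.9%, 37.6% and 35.0%. Foxo1 was thus the least abundant of the 3 factors in both WT libraries and in Irf4-/- control, and the most abundant in Irf4-/- injected. None of the 3 passed with edgeR for genotype, although all 3 had an unadjusted p under 0.05, as did 10.4% of all genes, and for injection none had one, against 14.2%. For genotype at that level DESeq2 gave only Foxo1, and limma-voom gave all 3. Shares over all genes are not given for these tools.

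Of 25 tested genes known to be activated by FOXO factors, 1 rose with the Irf4-/- label, 1 rose with injection and none fell with either, where 1.22% of all genes rose with the label and 0.333% with injection. At an unadjusted p under 0.05, edgeR gave 9 of 25 for genotype, against 10.4% of all genes, and 9 of 25 for injection, against 14.2%. The riser with injection was Il7r, the receptor chain for interleukin 7, with 1301, 3709, 1016 and 2685 counts in WT control, WT injected, Irf4-/- control and Irf4-/- injected. Both injected libraries were above both controls (additive log2 1.44 ± 0.127 SE, edgeR adjusted p = 0.000559). The riser with genotype was Tnfsf10, which encodes the death ligand TRAIL, at 36.8, 32.4, 53.6 and 72.5 CPM (log2 0.85 ± 0.145 SE, edgeR adjusted p = 0.0152). In each case 1 of 10 alternatives, the fit without the other term, ended the call, with an adjusted p of 0.157 for Il7r and 0.168 for Tnfsf10. DESeq2 also called Bcl2l11 for injection (adjusted p = 0.00727).

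Il7r and Tnfsf10 are also markers of type 1 innate lymphoid cells, which the sort gate could hold. The other 4 markers of that list summed to 27.3, 31.4, 61.6 and 103 CPM in WT control, WT injected, Irf4-/- control and Irf4-/- injected. Their sum was thus higher in the libraries labelled Irf4-/-, as Tnfsf10 was. It was also higher in the injected library than in the control of each genotype, but only slightly in wild type, where Il7r was 3.25-fold higher. One of the markers, Itga1, went the other way in wild type, at 8.27 CPM in control and 6.15 in injected. The part of such cells in either result was not tested.

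By the size rule, 4 of 22 FOXO-activated genes were at least 2-fold higher in WT injected than in WT control, where 1.11% of all genes were: Il7r, Txnip, Irs2 and Bcl2l11. The list holds 1 such gene of 23, Il7r, between the libraries labelled Irf4-/-, where 0.134% of all genes were higher. Counting intervals in the wild type pair excluded 0 upward for 10 of the 22 and downward for 8, against 30.2% and 30.8% of all genes. Klf2, a regulator of lymphocyte trafficking, was at 787, 575, 776 and 694 CPM in WT control, WT injected, Irf4-/- control and Irf4-/- injected, and is named outside the naming rule, after its values were seen.

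Txnip, an inhibitor of thioredoxin and of glucose uptake, was at 554, 1666, 616 and 479 CPM in WT control, WT injected, Irf4-/- control and Irf4-/- injected. WT injected stood above the other 3 libraries, as it did for Pik3ip1. The log2 ratio of injected over control was 1.59 (1.56 to 1.62) in wild type and -0.36 (-0.40 to -0.32) between the libraries labelled Irf4-/-. Irs2, an adaptor that recruits PI3K to the insulin receptor, was at 16.4, 35.4, 15.6 and 13.2 CPM, with log2 ratios of 1.11 (0.92 to 1.31) and -0.24 (-0.50 to 0.02). Txnip and Irs2 were the 2 of 23 FOXO-activated genes whose responses differed by at least 1 on the log2 scale, by 1.95 (1.90 to 2.002) and 1.35 (1.04 to 1.67), as did 0.827% of all genes in that direction. Neither passed the additive test for injection (edgeR adjusted p = 0.439 for Txnip and 0.434 for Irs2).

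Bcl2l11, which encodes the death-promoting protein BIM, was at 153, 312, 151 and 195 CPM in WT control, WT injected, Irf4-/- control and Irf4-/- injected. Its log2 ratio of injected over control was 1.03 (0.97 to 1.09) in wild type and 0.37 (0.29 to 0.44) between the libraries labelled Irf4-/-, and the additive effect of 0.70 ± 0.143 missed the threshold (edgeR adjusted p = 0.0576). In injected mice, the library labelled Irf4-/- was at least 2-fold lower than WT for Txnip (log2 ratio -1.80, -1.83 to -1.77) and Irs2 (-1.41, -1.63 to -1.20), and higher for Tnfsf10 (1.16, 1.02 to 1.30). Among all genes 0.661% were lower and 1.12% higher in that pair. Between the control libraries 0 of 23 differed 2-fold.

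**Figure D5:**
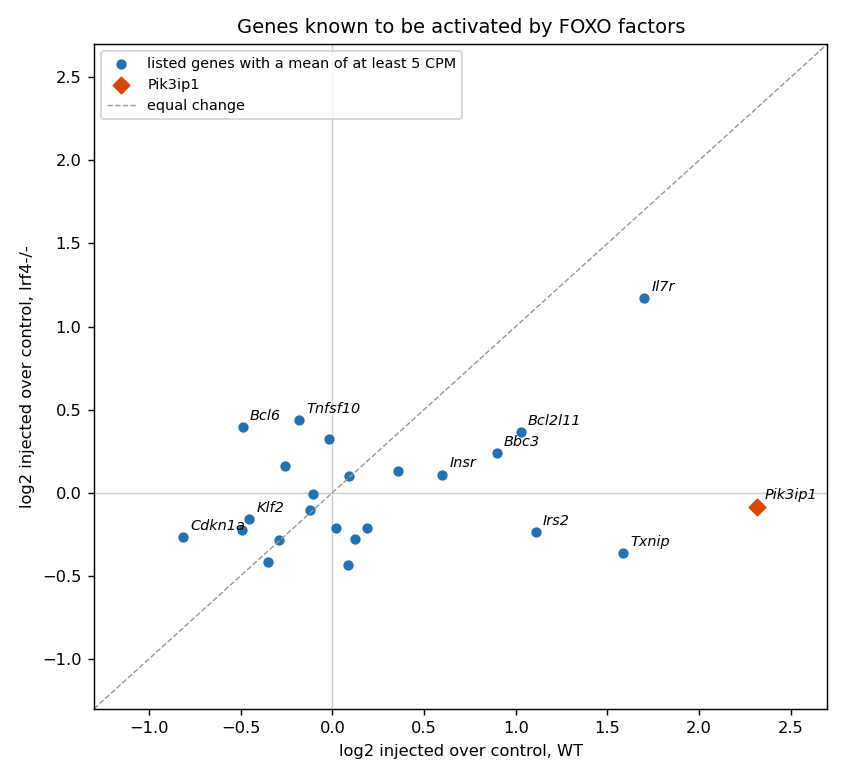
Log2 ratio of injected over control in wild type (horizontal axis) and between the libraries labelled Irf4-/- (vertical axis) for the genes known to be activated by FOXO factors that averaged 5 CPM or more (circles) and for Pik3ip1 (diamond); the dashed line marks equal ratios. Txnip, at 1.59 and -0.36, and Pik3ip1, at 2.32 and -0.08, lie furthest below the line, and Il7r is high on both axes, at 1.70 and 1.17.

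The promoters were searched on both strands for GTAAACA, a sequence that FOXO factors bind, in the 250 bases before each RefSeq transcript start (GRCm38.p6). It was present in 1040 of 32851 windows (3.17%). It was found in 1 of 13 windows of the 9 genes, a window of Akt1. A second set held list genes that met the size rule and the genes named as closest in pattern to Pik3ip1. Socs2 and Hist1h1e had no window. Of the 13 windows of this set, which count that of Pik3ip1 again, 3 had a match, a window each of Txnip, Bcl2l11 and Ifi208. Akt1 and Bcl2l11 each had another window without a match. Il7r, Irs2, Bmf and Dmrta1 differed 2-fold with injection in wild type, and their windows had no match. Txnip and Bcl2l11 also differed 2-fold there, whereas Akt1 hardly varied. The matching windows of Txnip, Bcl2l11 and Akt1 are shown 5′ to 3′ on the strand of the gene, with the match in capitals. They lie at chr3:96557707-96557956 (plus strand, match 121 bases before the start), chr2:128125788-128126037 (plus strand, 227 bases before) and chr12:112674885-112675134 (minus strand, 161 bases before, as the reverse complement).
Txnip: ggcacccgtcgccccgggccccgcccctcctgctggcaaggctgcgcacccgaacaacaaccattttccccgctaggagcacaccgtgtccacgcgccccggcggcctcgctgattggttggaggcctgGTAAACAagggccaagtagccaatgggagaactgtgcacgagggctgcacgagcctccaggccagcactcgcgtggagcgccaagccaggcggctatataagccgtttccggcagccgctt
Bcl2l11: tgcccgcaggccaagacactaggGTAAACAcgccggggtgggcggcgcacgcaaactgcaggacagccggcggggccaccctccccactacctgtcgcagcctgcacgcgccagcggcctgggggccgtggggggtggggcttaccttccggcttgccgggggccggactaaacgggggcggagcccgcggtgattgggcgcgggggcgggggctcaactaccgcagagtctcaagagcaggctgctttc
Akt1: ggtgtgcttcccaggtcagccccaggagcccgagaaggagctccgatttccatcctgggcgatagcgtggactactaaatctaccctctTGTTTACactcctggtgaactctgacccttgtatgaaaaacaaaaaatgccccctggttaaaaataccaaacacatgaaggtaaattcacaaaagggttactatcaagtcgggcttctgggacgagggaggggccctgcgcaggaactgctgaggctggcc
A match is a description of these letters, and a gene whose window holds it was found among those that differed 2-fold with injection and among those that did not. The RefSeq window of Pik3ip1 (chromosome 11, 3330481 to 3330730) had no match and 53.6% G and C, against a median of 52.4%. GENCODE starts the gene earlier, at 3330401, and annotates that whole window as 5′ untranslated sequence, so the bases before the GENCODE start were not searched. A pair of motifs of the interferon regulatory factor family was also searched, GAAA or GGAA followed after any 2 bases by GAAA (2.98% and 2.30% of all windows). They matched 0 of 13 windows of the 9 genes, and the former matched 1 window of the second set, that of Ifi208.

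Of 16 tested receptors and adaptors that recruit PI3K, 2 rose with injection, Il7r and Kit, none fell, and none passed for genotype. Among all genes 0.333% rose with injection and 1.48% passed for genotype. At an unadjusted p under 0.05, edgeR gave 3 of 16 for genotype and 4 of 16 for injection, against 10.4% and 14.2% of all genes. Kit, the receptor for stem cell factor, was at 86.4, 170.0, 99.0 and 171 CPM in WT control, WT injected, Irf4-/- control and Irf4-/- injected, with both injected libraries above both controls. Its additive effect was 0.88 ± 0.0994 (log2, SE; edgeR adjusted p = 0.00304), and the adjusted p was 0.157 without the genotype term. Il2rb, the interleukin 2 and 15 receptor chain, was the most abundant of the list, at a mean of 1077 FPKM, which compares with 166 FPKM for Pik3cd, 97.6 for Akt1, 17.2 for Foxo1 and 14.8 for Pik3ip1. Eif4ebp2, a brake on translation under mTOR control, was the most abundant mTOR gene at a mean of 76.0 FPKM.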

How the data were processed

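For each of 4 libraries the authors deposited raw read counts and FPKM. TopHat, edgeR and build mm10 are named in the submitters' processing notes. Which counting tool, annotation and strand setting were used was not given in the sources used here. Per the labels' protocols, RNA came from sorted NK cells and libraries from a SMARTER kit. The deposited FPKM served only to compare levels between genes. Symbols came from GENCODE (GRCm38) and matched 34490 of 35275 identifiers.

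Counts were scaled by TMM in edgeR 4.0.16 (R 4.3.3) on the 11998 genes that reached 1 CPM in 2 or more libraries. The quasi-likelihood test had genotype and injection as additive terms, two-sided, with Benjamini-Hochberg adjustment at 0.05, 1 residual degree of freedom and a prior of 9.62. Standard errors were computed as the absolute log2 change over the root of F. The labels do not say whether libraries came from separate animals, so the spread behind the p-values may be technical. Pairwise log2 ratios used a prior count of 2. The size rule asked for a mean of at least 5 CPM, a 2-fold ratio and a 95% counting interval that excludes 1, and for a difference of responses at least 1 on the log2 scale. Intervals of differences of responses are Wald intervals of the counts. Reads were counted without molecular identifiers, so the intervals may be too narrow. A count of 0 allows up to 3 counts, or 0.142 to 0.189 CPM. All 154 list entries matched by symbol. Lists were counted without Pik3ip1. The steps were tested on simulated data.

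Genes were named by a rule: the 9 genes and Irf4; of each list those that passed (at most 4 per effect), those that differed 2-fold in a pair and the most abundant; 6 genes closest in pattern to Pik3ip1; and 3 neighbours on each side. Some genes that meet the rule are not reported here. The 9 genes and the lists were chosen with earlier results of these data known. Alternatives were other scalings, prior counts, filters and thresholds, a fit without the other term, limma-voom (limma 3.58.1) and DESeq2 1.42.0. TMM on all genes with a count was added after seeing the data.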

Additional observations from a re-analysis of the deposited data

Results flagged for a closer look

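The 17 genes examined were the 9 genes and the list members that passed the edgeR test or met the size rule. The responses of 4 of the 17 went in opposite directions in the 2 genotypes, with counting intervals that excluded 0 in both. Over all genes this held for 636 of 9674 (6.57%). Because the list members were picked by their values in these same libraries, the shares are not alike and comparing them is no test. With 1 library per group the difference was not tested. For Pik3r1 the log2 ratio of injected over control was 0.43 in wild type and -0.05 between the libraries labelled Irf4-/-, a difference of 0.48 (0.43 to 0.53). For Pik3r5 it was 0.10 and -0.04, a difference of 0.15 (0.09 to 0.21). For Txnip it was 1.59 and -0.36, a difference of 1.95 (1.90 to 2.002). For Tnfsf10 it was -0.18 and 0.44, a difference of -0.62 (-0.82 to -0.42).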

How the results depend on the processing

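No paired analysis was possible because each group has 1 library and the labels carry no replicate numbers. Leaving out a library was not run, since it leaves a group empty. Of the 9 genes, 3 values near 0 on the log2 scale changed sign under an alternative: the genotype effect of Pik3r5 (0.00, lowest -0.00226), the ratio of Pik3cd between the WT libraries (0.01, lowest -0.00467) and the difference of responses of Inpp4b (0.01, lowest -0.0167). None was called. Foxo1 was the only one of the 8 tested genes to gain a call. Bcl2l11 gained a call for injection under 7 of 10 alternatives, Txnip under 2, and Txnip and Irs2 gained one for genotype under 3. The cause was not tested.

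Counts over all genes depended on the scaling and the filter. The genotype effect passed for 177 genes (146 higher, 31 lower), against 374 (261 and 113) under median-of-ratios scaling, 445 (299 and 146) with TMM from all genes, an alternative added after seeing the data, 478 (326 and 152) with no filter and 5 with the injection term left out. The injection effect passed for 87 genes (40 higher, 47 lower), against 458 with median-of-ratios scaling, 180 with upper-quartile scaling, 275 with library totals only, 591 with TMM from all genes, 614 with no filter, 235 at an adjusted p under 0.1 and 0 with the genotype term left out. A background share beside a count of the 9 genes moves with these choices.

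The size rule gave 78 genes for genotype in controls, 172 in injected mice, 183 for injection in wild type, 34 between the libraries labelled Irf4-/- and 120 for the difference of responses. With no minimum level these were 660, 943, 1258, 610 and 952. With a 20 CPM minimum they were 20, 65, 60, 10 and 31. With a 1.5-fold threshold they were 247, 686, 812, 258 and 676. Depth limited Inpp4b most, with 177 to 264 counts per library, and Pik3ip1 in the libraries labelled Irf4-/-, with 67 and 74.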
